A study of Homo sapiens with 7 samples.

Results

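The comparison set 3 arrays labelled CtBP1 knockdown against 2 scramble control arrays, 5 of the 7 arrays of a study of the ovarian carcinoma line SKOV3. SKOV3 is an established human cell line labelled serous ovarian cancer. Every group was made by lentiviral infection and grown as stable cells under puromycin, and the design text calls each of them a clone. The remaining 2 arrays hold CtBP2 knockdown clones, which carry the same kind of vector and selection, and they serve here to estimate the spread and as a second knockdown. The vector sequences and the identity of the scramble insert are not given in the sources used here. Each clone's total RNA was read on its own Affymetrix Human Gene 1.1 ST array, a design with probes along the whole transcript. Nothing in the labels says that the clones of a group came from separate cultures or days, so the p-values measure only how far these arrays differ, a spread that may be technical. The members of the comparison were all 17958 genes that had at least 1 of the 19181 transcript clusters listed with exactly 1 gene symbol, of 33297 clusters in all.

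CtBP1 and CtBP2 (C-terminal binding proteins) are transcriptional co-repressors that bind NADH and have no DNA-binding domain of the usual kind. DNA-bound factors such as ZEB1, KLF3 and the FOG proteins bring them to promoters and enhancers. There they assemble histone deacetylases, the demethylase KDM1A and the methyltransferases EHMT1 and EHMT2, and they are best known in carcinoma cells for repressing epithelial genes such as E-cadherin. Loss of a co-repressor is therefore usually examined for genes that go up as well as for genes that go down.

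The targeted gene did not separate the groups. The CTBP1 log2 signal was 5.69 and 6.37 on scramble controls 1 and 2, and 5.11, 6.13 and 6.13 on CtBP1-labelled arrays 1, 2 and 3. Only the first of the knockdown arrays lay below both controls, and the other two lay between them. The mean difference was -0.25 ± 0.39 (SE, with n = 3 and 2 as in all later comparisons, 95% interval -1.2 to 0.71, adjusted p = 0.849 by limma), 0.09 against control 1 and -0.59 against control 2. Per the labels, protein loss had been tested by western blot. The transcript signal does not bear out the label on 2 of the 3 arrays, which lie below control 2 but above control 1. The groups are therefore named below as labelled.

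The related gene CTBP2 had log2 signals of 5.70 and 6.14 on the controls, 6.25, 6.31 and 6.27 on the CtBP1-labelled arrays, against 4.64 and 4.22 in the CtBP2 knockdown. All the arrays labelled CtBP1 knockdown lay slightly above both controls (0.36 ± 0.19 on the log2 scale, SE, 0.58 and 0.14 from controls 1 and 2, adjusted p = 0.734 by limma). In this transcript cluster the CtBP2 knockdown arrays lay below every other array. A second, dimmer CTBP2 cluster differed by 0.01 between the CtBP1-labelled arrays and the controls.

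**Figure D1:**
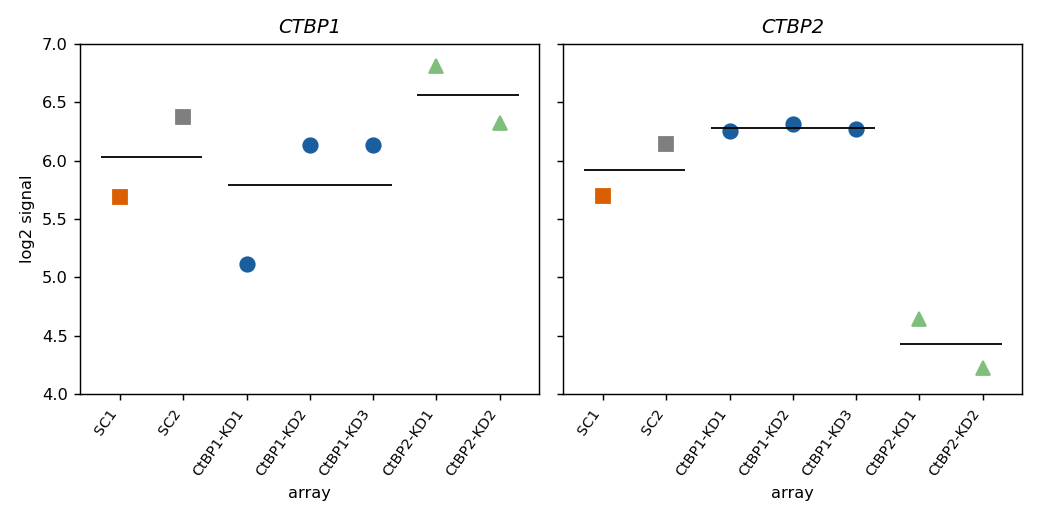
Log2 signal (vertical axis) of CTBP1 and CTBP2 on each of the 7 arrays, with horizontal lines at the group means. CTBP1 on the CtBP1-labelled arrays runs from 5.11 to 6.13 and overlaps the controls at 5.69 and 6.37, while CTBP2 is at 4.22 and 4.64 on the CtBP2 knockdown arrays alone.

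The 2 controls differed from each other more than control 2 differed from any array labelled CtBP1 knockdown. Between the controls, 2847 genes lay more than 1 log2 unit apart. Between control 2 and the 3 knockdown arrays the number was 374, 705 and 385, and between control 1 and the same arrays it was 2571, 1905 and 2978. Control 1 also had a narrower spread of signals, with an interquartile range of 2.20 against 2.85 to 3.15 on the other arrays. Whether the state of the cells, the RNA or the hybridisation moved control 1 was not tested. Counts are therefore given against both controls and, for most lists, against each alone. A gene's difference is from the mean of both controls unless stated, and the differences from each are added where they are far apart.

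Against both controls, no gene passed an adjusted p of 0.05 (0 of 17958 genes, 0.0%, by limma), and the smallest adjusted p was 0.734. At an unadjusted p under 0.05 there were 861 genes (4.79%), of which 516 were higher and 345 lower on the knockdown arrays. Against control 2 alone there were again 0 genes past the adjusted threshold by limma, and 1379 (7.68%) at an unadjusted p under 0.05, of which 405 were higher and 974 lower. Against control 1 alone, 3262 genes (18.2%) passed the adjusted threshold, 1944 higher (10.8%) and 1318 lower (7.34%), and 6516 (36.3%) had an unadjusted p under 0.05. The split of the calls was 999 higher and 1366 lower after renewed quantile normalisation, 1739 and 1932 with a trend of the spread with signal, and 1762 and 186 without dim genes. With a lone control, the fit assumes that it varies like the other groups. The calls against control 1 all went when the spread was taken only from the groups compared (0 genes). They also all went without either CtBP2 knockdown array (0 genes each), whose pair differed by more than 1 log2 unit in only 78 genes, and without CtBP1 knockdown 3 the number was 1304 and without CtBP1 knockdown 1 it was 1872.

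With the counts of calls turning on the choice of control, the genes of most interest were those whose knockdown arrays all lay beyond both controls. On the arrays labelled CtBP1 knockdown, 1214 genes (6.76% of all genes) were above both controls on every array and 1363 (7.59%) were below both. More than 1 log2 unit from each control in the same direction lay 55 genes above and 10 below. The 12 genes in each direction with the widest gap between the nearest arrays of the groups are described next. They were picked for that gap, so their separation is a description and carries no test, and all 24 had an adjusted p of 0.734 against both controls by limma. The gap ran from 1.99 for LRRN4 to 1.0 for TMEM92 among the higher genes, with ARRB1 next at 0.98. It ran from 1.35 for CACNA2D1 to 0.67 for DDIT3 among the lower genes, with KLHL28 next at the same value to 2 decimals.

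Regulatory sequence is shown for 3 genes that the results turn on. These are ADGRG1, the adhesion receptor with the second widest gap among the higher genes, CACNA2D1, first among the lower genes, and ASNS, a textbook target of the factor ATF4 whose other targets are described further on. Each stretch holds the 250 bases before the annotated RefSeq transcription start in GRCh38.p14, read 5′ to 3′ on the gene's own strand. The ADGRG1 stretch is chr16:57619488-57619737 on the plus strand, with 2 copies of the E-box CAGGTG in capitals, the element that ZEB-type factors bind. The CACNA2D1 stretch is chr7:82443957-82444206 on the minus strand, with a CACCC box, the core element of Krüppel-like factors, in capitals. The ASNS stretch is chr7:97872409-97872658 on the minus strand, with the ATF4-type element TGATGAAA in capitals.
ADGRG1: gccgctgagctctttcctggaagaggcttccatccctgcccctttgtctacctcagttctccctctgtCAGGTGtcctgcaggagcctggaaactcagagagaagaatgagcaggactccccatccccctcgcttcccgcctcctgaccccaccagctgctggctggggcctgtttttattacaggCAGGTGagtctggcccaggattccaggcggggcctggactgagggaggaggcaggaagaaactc
CACNA2D1: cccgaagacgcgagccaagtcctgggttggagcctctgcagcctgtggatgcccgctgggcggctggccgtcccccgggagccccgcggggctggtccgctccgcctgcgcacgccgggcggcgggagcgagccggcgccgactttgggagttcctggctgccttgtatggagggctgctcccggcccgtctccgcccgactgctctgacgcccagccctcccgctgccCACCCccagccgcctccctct
ASNS: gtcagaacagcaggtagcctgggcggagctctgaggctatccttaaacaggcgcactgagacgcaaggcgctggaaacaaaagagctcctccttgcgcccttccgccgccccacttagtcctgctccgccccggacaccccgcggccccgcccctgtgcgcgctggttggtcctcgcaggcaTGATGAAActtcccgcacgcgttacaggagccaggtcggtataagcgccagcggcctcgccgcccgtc

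The same windows were searched on both strands in 35116 RefSeq promoters. The letters CACCTG or CAGGTG occurred in 17.5% of them, CACCC or GGGTG in 54.7%, and TGATGNAA or TTNCATCA in 3.14%. Among the 12 widest-gap higher genes, 8 had a promoter entry, and the E-box occurred in 2 of these (ADGRG1 and TUBA4A) and the CACCC box in 6. Of the lower genes 11 had an entry, with the E-box in 2 (RRAGC and EDIL3) and the CACCC box in 9, CACNA2D1 among them. A match says only that the letters occur in the window.

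Among the higher genes, LRRN4 and ADGRG1 had the widest gaps. LRRN4, a leucine-rich repeat membrane protein known as a marker of mesothelial cells, had log2 signals of 3.64 and 3.54 on controls 1 and 2 and 6.45, 5.62 and 6.25 on CtBP1-labelled arrays 1, 2 and 3. Its controls were close together and every knockdown array stood well above them. The difference was 2.52 ± 0.29 (SE, 95% interval 1.82 to 3.23), or 5.74-fold, and it was 2.47 against control 1 and 2.57 against control 2. The CtBP2 knockdown arrays were also high for LRRN4, at 5.51 and 6.06. Its direct difference between the knockdowns was 0.32 (unadjusted p = 0.306, adjusted p = 0.95 by limma). ADGRG1 (also called GPR56), an adhesion G protein-coupled receptor that binds extracellular matrix, had signals of 3.32 and 3.20 on the controls and 5.29, 5.84 and 6.49 on the knockdown arrays. The groups were far apart and the knockdown arrays differed among themselves by more than the controls did. Its difference was 2.61 ± 0.33 (SE, 95% interval 1.8 to 3.43), a 6.12-fold higher signal. On the CtBP2 knockdown arrays ADGRG1 was at 4.47 and 4.38, between the other groups, and the direct difference between the knockdowns was 1.45 (unadjusted p = 0.00484, adjusted p = 0.331 by limma).

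Of the other 22 measured adhesion G protein-coupled receptors, few were set apart. In the whole family of 23, every knockdown array lay above both controls for 2 members and below both for 2. ADGRG1, picked for its gap, is among those above. The shares over all genes were 6.76% and 7.59%. The second member above was ADGRL1, a latrophilin, with signals of 4.95 and 5.08 on the controls and 6.08, 5.33 and 6.04 on the knockdown arrays. Most of the family was dim, with a median signal of 2.17 to 2.91 on the arrays compared, and the median difference of the family was -0.03 against -0.00 for all genes tested.

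The largest difference of the 12 was that of IL6. IL6, the cytokine interleukin-6, had signals of 3.13 and 3.43 on the controls and 6.01, 7.27 and 5.38 on the knockdown arrays, a difference of 2.94 ± 0.72 (SE), or 7.66-fold. Each knockdown array was above both controls, with a range among them of nearly 2 log2 units. The CtBP2 knockdown arrays were as high, at 7.27 and 5.38. The deposited IL6 value of CtBP1 knockdown 3 equals that of CtBP2 knockdown 2 to the last digit, and such ties occur across the table: 4566 of 17958 genes have an identical value on at least 2 of the 5 arrays compared.

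IGFBP7, a secreted protein that binds insulin-like growth factors, had signals of 5.58 and 6.54 on the controls and 8.37, 8.21 and 9.23 on the knockdown arrays (difference 2.55 ± 0.48, SE). MT1F, a metallothionein that binds zinc and copper, had 4.11 and 3.90 on the controls and 6.55, 5.65 and 7.65 on the knockdown arrays (2.61 ± 0.54, SE). Both genes were also high on the CtBP2 knockdown arrays, where IGFBP7 was at 8.65 and 7.63 and MT1F at 7.10 and 7.14. IL1R1, the receptor that carries the interleukin-1 signal, had signals of 2.85 and 2.69 on the controls and 4.93, 4.17 and 4.23 on the knockdown arrays (1.68 ± 0.26, SE). It was higher still on the CtBP2 knockdown arrays, at 6.09 and 5.80, and the direct difference between the knockdowns was -1.50 (unadjusted p = 0.00114, adjusted p = 0.225 by limma).

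EPAS1, which encodes the hypoxia-inducible factor HIF-2 alpha, had signals of 4.73 and 4.68 on the controls and 6.72, 6.06 and 6.57 on the knockdown arrays. The controls were nearly equal and the knockdown arrays lay well above them, by 1.75 ± 0.25 (SE) or 3.36-fold. TUBA4A, an alpha-tubulin, had 5.19 and 6.12 on the controls and 8.08, 7.16 and 7.90 on the knockdown arrays (2.06 ± 0.38, SE, 2.52 and 1.60 from controls 1 and 2). VPS35L, a subunit of the retriever complex that recycles membrane proteins from endosomes, had 2.38 and 2.53 against 5.26, 3.85 and 4.52 (2.09 ± 0.45, SE). LDOC1, a nuclear leucine-zipper protein, had 3.19 and 3.65 against 7.38, 5.27 and 5.05 (2.48 ± 0.88, SE), and 1.74 without the first knockdown clone. These 4 genes were above both controls on the CtBP2 knockdown arrays as well.

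TMEM92 and MAL were higher in the CtBP1-labelled arrays than in the CtBP2 knockdown. TMEM92, a membrane protein, had signals of 4.15 and 4.29 on the controls, 5.29, 5.33 and 5.31 on the CtBP1-labelled arrays, and 4.0 and 3.72 in the CtBP2 knockdown. The 3 knockdown arrays were almost equal, and the CtBP2 knockdown arrays lay below the controls. The difference was 1.09 ± 0.13 (SE) from the controls and 1.45 from the CtBP2 knockdown (unadjusted p = 2.91e-05, adjusted p = 0.129 by limma). MAL, a raft protein of apical membrane traffic, had 5.0 and 5.93 on the controls, 7.31, 7.92 and 6.95 on the CtBP1-labelled arrays and 6.27 and 6.17 in the CtBP2 knockdown. Its difference was 1.93 ± 0.37 (SE) from the controls, 2.39 and 1.46 from each, and 1.17 from the CtBP2 knockdown (unadjusted p = 0.0195, adjusted p = 0.503 by limma). Over the 12 higher genes, 4 had an unadjusted p under 0.05 in the direct comparison of the knockdowns, beside 7.77% of all genes, and their adjusted p values by limma ran from 0.129 to 0.999.

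Among the lower genes, a calcium channel subunit had the widest gap. CACNA2D1, the alpha-2-delta-1 subunit that carries voltage-gated calcium channels to the surface, had signals of 4.25 and 4.79 on controls 1 and 2 and 2.47, 2.90 and 2.29 on the CtBP1-labelled arrays. Every knockdown array was near the dim end of the scale and below both controls. The difference was -1.96 ± 0.26 (SE, 95% interval -2.61 to -1.32), a 3.90-fold lower signal, and the CtBP2 knockdown arrays were also low at 2.73 and 3.17. Its relative CACNA2D3 had 4.10 and 4.24 on the controls and 3.32, 3.45 and 3.82 on the knockdown arrays (-0.64 ± 0.17, SE). Of the 17 measured calcium channel subunits, 16 had a lower mean on the knockdown arrays, beside 50.8% of all genes. Most of these subunits were dim, with a median signal of 2.21 to 2.48 on the arrays compared. Dim markers of other cell types were mostly lower too, 14 of 15 for fibroblast and endothelial cells and 10 of 13 for leukocytes. For 3 of the 17 every knockdown array lay below both controls, beside 7.59% of all genes. CACNA2D1, picked for its gap, is among the 3. The median difference was -0.05, or 0.01 after renewed quantile normalisation. Against control 2 alone, 11 of the 17 were lower, beside 54.7% of all genes.

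ZFPM2 (FOG2), a zinc finger cofactor of GATA factors and itself a partner that binds CtBP proteins, had signals of 3.45 and 3.15 on the controls and 2.16, 2.16 and 1.86 on the knockdown arrays. It was dim on every array and lowest on both kinds of knockdown, with 1.98 and 1.93 on the CtBP2 knockdown arrays. The difference was -1.24 ± 0.16 (SE). SLC17A8, a vesicular glutamate transporter, had 2.97 and 4.67 on the controls and 2.00, 1.90 and 1.58 on the knockdown arrays (-2.00 ± 0.48, SE), so its size depends on which control is used: -1.14 against control 1 and -2.85 against control 2.

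ORC5, a subunit of the origin recognition complex that licenses DNA replication, was the lower gene with the tightest groups. Its signals were 6.08 and 6.19 on the controls, 5.17, 5.23 and 5.25 on the CtBP1-labelled arrays, and 6.21 and 5.88 in the CtBP2 knockdown. The knockdown arrays lay within 0.1 log2 unit of each other, while the CtBP2 knockdown arrays lay near the controls. The difference was -0.92 ± 0.14 (SE) from the controls and -0.82 from the CtBP2 knockdown (unadjusted p = 0.00089, adjusted p = 0.213 by limma). ATP5MK, a small subunit of mitochondrial ATP synthase, shared this pattern, with 8.13 and 8.22 on the controls, 7.40, 5.72 and 7.27 on the CtBP1-labelled arrays and 8.23 and 8.10 in the CtBP2 knockdown. Its difference of -1.38 ± 0.51 (SE) was -0.83 without the second knockdown clone.

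RRAGC, FAR2 and CHPT1 had controls that lay close together. RRAGC, a Rag GTPase that reports amino acids to mTORC1, had signals of 6.23 and 6.05 on the controls and 5.28, 4.31 and 4.80 on the knockdown arrays (-1.34 ± 0.29, SE). FAR2, which makes fatty alcohols, had 4.33 and 4.23 against 2.91, 3.43 and 2.97 (-1.18 ± 0.26, SE). CHPT1, the last enzyme of phosphatidylcholine synthesis, had 8.07 and 7.92 against 7.23, 6.93 and 7.03 (-0.93 ± 0.17, SE). In all of them every knockdown array was well below both controls.

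PROS1, the anticoagulant protein S, had signals of 4.43 and 4.45 on the controls and 3.61, 3.33 and 3.66 on the knockdown arrays (-0.90 ± 0.14, SE). TMEM260, a membrane O-mannosyltransferase, had 5.84 and 5.87 against 5.11, 4.57 and 5.0 (-0.96 ± 0.18, SE). EDIL3, a matrix protein that binds integrins, had 5.67 and 6.29 against 4.47, 5.0 and 2.12 (-2.12 ± 0.85, SE). The first of these genes was even among the knockdown arrays, and without the third clone the EDIL3 difference was -1.25. DDIT3 closes the list and is described with the ATF4 genes. In the direct comparison of the knockdowns, 2 of the 12 lower genes, ORC5 and ATP5MK, had an unadjusted p under 0.05, beside 7.77% of all genes. The adjusted p values of the 12 by limma ran from 0.213 to 1.0.

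**Figure D2:**
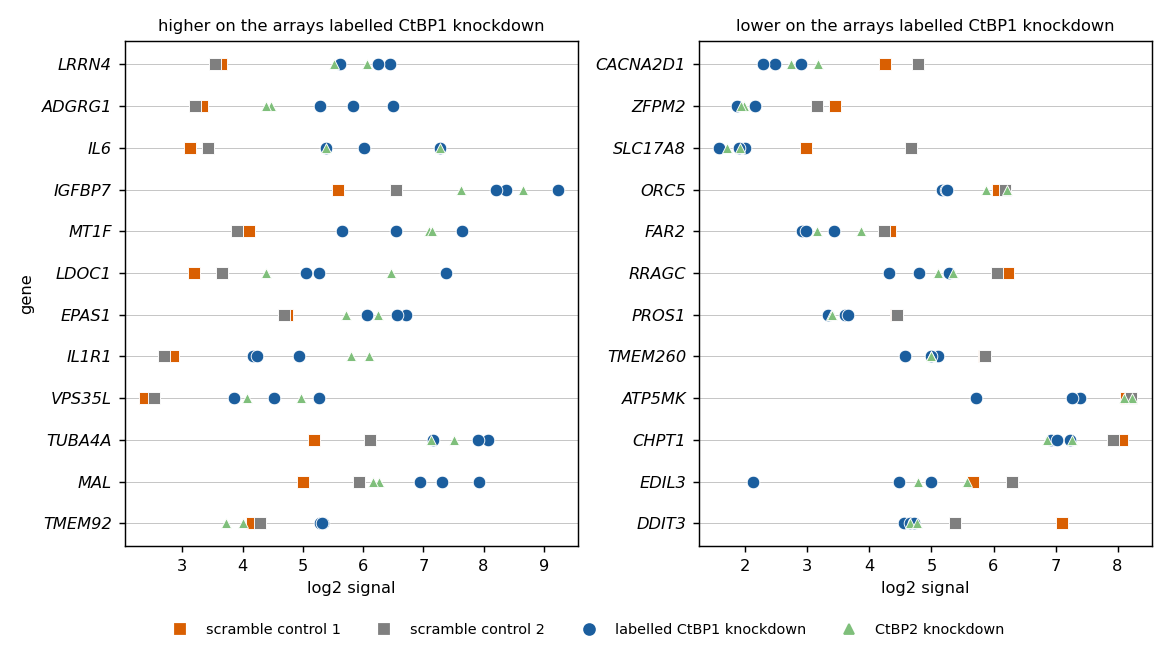
Log2 signal (horizontal axis) on each of the 7 arrays for the 12 genes in each direction with the widest gap between the arrays labelled CtBP1 knockdown and both controls. The circles of TMEM92 (5.29 to 5.33) and ORC5 (5.17 to 5.25) are the tightest and their CtBP2 knockdown triangles lie with or beyond the controls, while the triangles of most other genes lie on the knockdown side.

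Of the 24 genes, 8 higher ones (ADGRG1, EPAS1, IGFBP7, IL1R1, LRRN4, MAL, TMEM92 and TUBA4A) and 7 lower ones (CACNA2D1, CHPT1, DDIT3, ORC5, PROS1, SLC17A8 and ZFPM2) passed the adjusted threshold against control 1 alone. In that comparison 18.2% of all genes did, and nothing is read from the count, since the 24 were chosen for their distance from this control among others. Against control 2 alone none of the 24 passed it, with adjusted p values by limma no lower than 0.398, the smallest of any gene.

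The machinery that CtBP1 belongs to was next examined. Of 17 measured subunits of the CtBP complex, 12 had a higher mean than the controls on the knockdown arrays, beside 49.1% of all genes. But 16 were higher against control 1 and only 4 against control 2, beside 51.2% and 45.0% of all genes. The median of 0.11 became -0.04 after renewed quantile normalisation. KDM1A shows the order: its signal was 6.0 and 7.12 on controls 1 and 2 and 6.92, 6.85 and 6.90 on the knockdown arrays. HDAC1 lay likewise at 5.71 and 7.08 on the controls and 6.70, 7.08 and 6.85 on the knockdown arrays. CTBP2 was the single subunit of the 17 with every knockdown array above both controls, beside 6.76% of all genes.

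Among 18 measured factors that recruit CtBP proteins, every knockdown array was above both controls for 4. It was below both for 1, ZFPM2, which was picked earlier for its gap. Over all genes the shares were 6.76% and 7.59%. TGIF1, a homeodomain repressor of TGF-beta signalling, had signals of 6.90 and 7.08 on the controls and 7.55, 7.59 and 7.65 on the knockdown arrays (0.61 ± 0.11, SE). TCF7L2, a DNA-binding factor of Wnt signalling, had 6.15 and 6.22 on the controls, 6.84, 6.69 and 6.99 on the CtBP1-labelled arrays and 5.67 and 5.75 in the CtBP2 knockdown. It lay above the controls in one knockdown and below them in the other (0.66 ± 0.13 for CtBP1, SE). ZEB1, the E-box repressor of epithelial genes, was within the range of its controls, at 5.90 and 6.52 against 6.11, 5.97 and 6.04.

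Epithelial genes showed no common direction. Of 28 measured, 14 had a higher and 14 a lower mean on the knockdown arrays, beside 49.1% and 50.8% of all genes. Every knockdown array lay above both controls for 3 and below both for 2, beside 6.76% and 7.59% of all genes. The median difference was -0.01. CDH1, which encodes E-cadherin, was dim on every array, at 2.60 and 2.37 on the controls and 2.81, 2.36 and 2.37 on the knockdown arrays. JUP, the junction protein plakoglobin, had 5.40 and 5.73 on the controls and 6.56, 6.44 and 6.76 on the knockdown arrays (1.02 ± 0.18, SE). CLDN1, a tight junction protein, had 8.79 and 9.95 against 10.52, 10.74 and 10.63 (1.26 ± 0.36, SE, 1.84 and 0.69 from controls 1 and 2). DSC2, a desmosomal cadherin, was lower, with 5.21 and 5.36 against 3.27, 4.52 and 5.0 (-1.02 ± 0.50, SE, and -0.53 without the first clone).

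Among 22 mesenchymal genes 13 were higher and 9 lower, beside 49.1% and 50.8% of all genes. The median difference was 0.26. It was 0.20 and 0.14 against controls 1 and 2, 0.09 without CtBP1 knockdown 3 and 0.13 after renewed quantile normalisation. TGFBI, which TGF-beta induces and cells secrete into the matrix, had signals of 3.17 and 4.0 on the controls, 5.63, 4.88 and 5.81 on the CtBP1-labelled arrays and 8.05 and 7.39 in the CtBP2 knockdown (1.86 ± 0.39, SE, against the controls, 2.27 and 1.44 from each). LOXL2, a lysyl oxidase that cross-links collagen, had 5.16 and 6.27 against 6.99, 7.44 and 6.68 (1.32 ± 0.37, SE, 1.87 and 0.77 from controls 1 and 2). Both genes were above the controls on every knockdown array. FN1, fibronectin, and SPARC, a matrix glycoprotein, were high on a single clone each: FN1 was at 2.33, 5.68 and 3.32 and SPARC at 2.13, 3.34 and 6.22 on CtBP1 knockdown 1, 2 and 3.

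The integrins, receptors for the matrix, had members on either side: of 18 measured, every knockdown array was above both controls for 2 and below both for 3 (6.76% and 7.59% of all genes), and the median difference was 0.08. ITGB3, the beta-3 subunit, had signals of 3.79 and 3.42 on the controls and 4.83, 4.58 and 4.73 on the knockdown arrays (1.11 ± 0.18, SE). ITGB6, the epithelial beta-6 subunit, had 6.02 and 5.20 against 6.25, 6.73 and 7.06 (1.07 ± 0.33, SE, 0.66 and 1.48 from controls 1 and 2), and was lower than both controls in the CtBP2 knockdown at 4.75 and 4.47. ITGA6, the laminin-binding alpha-6 subunit, had 7.60 and 7.54 against 6.44, 6.17 and 7.13 (-0.99 ± 0.30, SE). ITGA2, a collagen receptor subunit, had 5.38 and 4.50 against 4.07, 3.76 and 4.36 (-0.88 ± 0.34, SE, -1.32 and -0.44 from controls 1 and 2).

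Genes of cell division gave opposite pictures against the 2 controls. Of 38 genes of G2/M and mitosis, 37 were higher on the knockdown arrays than on control 1, beside 51.2% of all genes, with a median difference of 1.67. Against control 2, 28 were lower, beside 54.7% of all genes, with a median of -0.25. MKI67 (Ki-67), picked with CCNB1 as a familiar example after the values were seen, was at 5.04 and 8.18 on controls 1 and 2 and 8.47, 7.71 and 7.95 on the knockdown arrays. CCNB1 (cyclin B1) was at 4.17 and 7.07 on the controls and 6.65, 6.72 and 6.72 on the knockdown arrays. Control 1 stood far below every knockdown array for both genes, while control 2 lay within their range for MKI67 and above them for CCNB1. At an unadjusted p under 0.05 against control 2, 7 of the 38 were lower and 0 higher, beside 5.42% and 2.26% of all genes, and 0 passed the adjusted threshold by limma.

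The 41 DNA replication genes were 39 higher and 2 lower against control 1 (median 0.85), beside 51.2% and 48.5% of all genes. They were 9 higher and 31 lower against control 2 (median -0.12), beside 45.0% and 54.7% of all genes. ORC5, picked earlier for its gap, was the gene of this list below both controls on every array. CDT1, the licensing factor, lay above both, with 3.73 and 4.01 on the controls and 4.36, 4.36 and 4.64 on the knockdown arrays (0.58 ± 0.19, SE, 0.72 and 0.44 from controls 1 and 2). DNA repair lists had the same order of medians: 0.53 and -0.17 for double-strand break repair, 0.75 and -0.20 for the Fanconi anaemia genes, 0.65 and -0.12 for damage signalling, and 0.60 and -0.12 for excision and mismatch repair, against controls 1 and 2. In each the median changed sign with the control. DNA2, a nuclease of end resection, was above both controls, at 2.53 and 3.98 against 4.64, 4.18 and 4.60 (1.22 ± 0.42, SE, 1.94 and 0.49 from controls 1 and 2).

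The median signal of cholesterol synthesis genes lay between the controls on every knockdown array. All 20 measured genes of the pathway were higher on the knockdown arrays than on control 1 (median 0.86), beside 51.2% of all genes. Of the 20, 19 were lower than on control 2 (median -0.87), beside 54.7% of all genes. No gene of the 20 had every knockdown array beyond both controls on the same side. MSMO1, a sterol demethylase, was at 5.67 and 9.23 on the controls and 8.70, 6.40 and 7.58 on the knockdown arrays. DHCR7, which makes cholesterol in the last step, was at 3.13 and 7.14 against 5.80, 4.96 and 5.32. Against control 2, 13 of the 20 were lower at an unadjusted p under 0.05, beside 5.42% of all genes, and 0 passed the adjusted threshold by limma, while against control 1, 14 were higher at an unadjusted p under 0.05, beside 20.1% of all genes, and 7 passed the adjusted threshold, beside 10.8%.

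Other genes had equally wide brackets. Over 1 log2 unit above control 1 and below control 2 lay 20 genes, and 6 lay as far the other way. DKK1, a secreted Wnt inhibitor, was at 3.09 and 8.71 on the controls and 6.98, 6.36 and 5.94 on the knockdown arrays, a difference of 3.34 from control 1 and -2.28 from control 2. LHFPL6, a tetraspan membrane protein, was at 4.79 and 8.58 on the controls and 7.57, 6.29 and 6.57 on the knockdown arrays. C3, the central complement component, was at 7.89 and 4.14 against 6.59, 6.97 and 6.41, TOB2, an antiproliferative protein, at 9.91 and 6.36 against 7.18, 8.71 and 6.98, and the antisense transcript LIMD1-AS1 at 3.90 and 1.50 against 2.31, 3.57 and 2.08. For each of these genes the controls lay on opposite sides of every knockdown array.

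**Figure D3:**
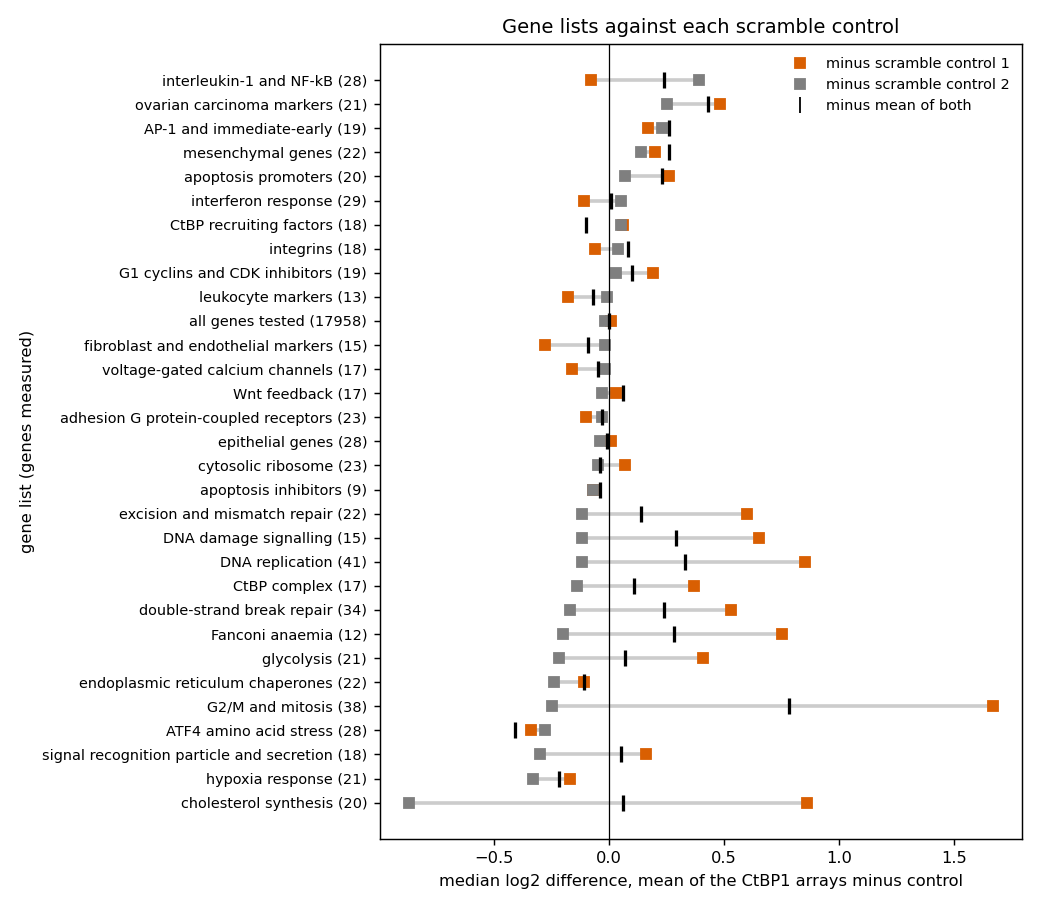
Median log2 difference of the 30 gene lists and of all genes tested (horizontal axis, mean of the arrays labelled CtBP1 knockdown minus the control). Lists of division, repair and cholesterol synthesis have a long bar that crosses 0, from -0.25 to 1.67 for G2/M and mitosis and from -0.87 to 0.86 for cholesterol synthesis, whereas the ATF4 and ovarian marker lists lie on one side of 0 against both controls.

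One list that kept its side against both controls was that of ATF4, the factor that switches on amino acid synthesis and transport when amino acids are short or proteins misfold. Of 28 genes, 23 had a lower mean on the knockdown arrays than the mean of the controls, beside 50.8% of all genes. Against control 1 it was 19 and against control 2 it was 26, beside 48.5% and 54.7% of all genes. The median difference was -0.41 against both, -0.34 against control 1 and -0.28 against control 2. Every knockdown array was below both controls for 11 of the 28, beside 7.59% of all genes, and above both for 1, PYCR1. DDIT3, picked earlier for its gap, is among the 11 and among the 7 counted next. Of the 28, 7 were lower at an unadjusted p under 0.05 (1.92% of all genes) and 0 passed the adjusted threshold by limma. The median signal of the list was 5.99 and 5.53 on the controls and 5.38, 5.02 and 5.46 on the CtBP1-labelled arrays. It was 5.29 and 5.07 on the CtBP2 knockdown arrays, so the lower level was not particular to the CtBP1-labelled ones.

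By role, a stress regulator came first. DDIT3 (CHOP), a transcription factor of the stress response, had signals of 7.11 and 5.38 on the controls and 4.55, 4.66 and 4.71 on the knockdown arrays. The knockdown arrays were nearly equal and below both controls, but the controls themselves were far apart, so the difference was -2.48 against control 1 and -0.74 against control 2 (-1.61 ± 0.47, SE, against both). The CtBP2 knockdown arrays were as low for DDIT3, at 4.66 and 4.76. DDIT4 (REDD1), which restrains mTORC1, had 4.37 and 4.39 on the controls and 3.37, 3.48 and 3.84 on the knockdown arrays (-0.82 ± 0.16, SE). Its difference was the same against either control, at -0.81 and -0.83. The gene ATF4 itself differed by -1.16 from control 1 and by -0.04 from control 2.

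The synthesis enzymes were also lower. PHGDH, the first enzyme of serine synthesis, had 6.60 and 5.61 on the controls and 3.73, 4.75 and 5.04 on the knockdown arrays (-1.60 ± 0.46, SE, -2.10 and -1.11 from controls 1 and 2). PSAT1, the next enzyme, had 6.88 and 6.40 against 6.0, 5.14 and 6.31 (-0.82 ± 0.36, SE, -1.07 and -0.58 from controls 1 and 2). ASNS, asparagine synthetase, had 5.32 and 3.97 against 3.40, 3.38 and 3.37 (-1.26 ± 0.37, SE, -1.94 and -0.59 from controls 1 and 2). On the CtBP2 knockdown arrays PHGDH was also low, at 4.66 and 4.69, whereas ASNS was at 3.93 and 4.07. All CtBP1-labelled arrays were below both controls for PHGDH, PSAT1 and ASNS, and their 3 values of ASNS were almost identical. Its promoter is printed above, and the ATF4-type element was found in 4 of the 22 list members with a promoter entry, CHAC1, ATF3, ASNS and AARS1, beside 3.14% of all promoters.

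Further members with every knockdown array below both controls were the alanyl-tRNA synthetase AARS1 at 7.81 and 7.19 against 6.43, 6.78 and 6.64, the mitochondrial folate enzyme MTHFD2 at 7.47 and 6.80 against 6.21, 6.70 and 6.22, and the amino acid transporter SLC38A2 at 8.58 and 8.76 against 8.21, 8.02 and 8.25. Their differences were -0.89 ± 0.21, -0.75 ± 0.27 and -0.51 ± 0.16 (SE). Those of AARS1 were -1.20 and -0.58 from controls 1 and 2, and those of MTHFD2 -1.09 and -0.42. PYCR1, a proline synthesis enzyme, was the exception, at 4.75 and 5.03 against 5.21, 5.16 and 5.23. Chaperones of the endoplasmic reticulum, which serve the neighbouring branch of the stress response, had a median difference of -0.11, and 6 of 22 had every knockdown array below both controls and 2 above, beside 7.59% and 6.76% of all genes. CANX, calnexin, was at 10.85 and 10.79 against 10.37, 10.33 and 10.21 (-0.51 ± 0.12, SE), and XBP1, a factor of the unfolded protein response, at 6.63 and 6.31 against 5.86, 5.99 and 6.08 (-0.49 ± 0.16, SE, -0.65 and -0.34 from controls 1 and 2).

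The interleukin-1 and NF-kB list moved with the control in part. Of 28 measured genes, 23 had a higher mean against both controls and 25 against control 2, but 12 against control 1. The medians were 0.24, 0.39 and -0.08, so the direction of the list was not the same against each control, and the mean of 45.0% of all genes was higher against control 2. Every knockdown array was above both controls for 8 genes (6.76% of all genes) and below both for 0. IL6 and IL1R1, both picked earlier for their gap, are among these 8 and among the 5 counted next. At an unadjusted p under 0.05, 5 were higher against both controls and 9 against control 2, beside 2.87% and 2.26% of all genes, and 0 passed the adjusted threshold by limma in either.

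Among the ligands, TNF had signals of 4.48 and 2.53 on the controls and 5.0, 6.73 and 6.10 on the knockdown arrays (2.44 ± 0.70, SE, 1.46 and 3.41 from controls 1 and 2). TNF was above both controls in the CtBP2 knockdown as well, at 5.20 and 4.93. CCL2, the monocyte chemokine, had 3.12 and 2.25 against 5.29, 3.80 and 3.61 (1.55 ± 0.55, SE, 1.12 and 1.99 from controls 1 and 2, and 1.02 without the first clone), and was lower in the CtBP2 knockdown than on any array labelled CtBP1 knockdown, at 2.72 and 2.89. LIF, a cytokine of the interleukin-6 family, had 3.47 and 3.13 against 3.84, 4.23 and 4.51 (0.90 ± 0.22, SE). With IL6 and the receptor IL1R1 above, these are the members whose knockdown arrays were highest over both controls. IL1A, a ligand of IL1R1, differed in sign between the controls, at 7.31 and 3.93 against 5.29, 6.75 and 5.0. The feedback inhibitors did the same: NFKBIA was at 8.62 and 6.52 against 7.11, 8.09 and 8.20, and TNFAIP3 at 5.99 and 4.16 against 5.18, 5.87 and 5.32.

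**Figure D4:**
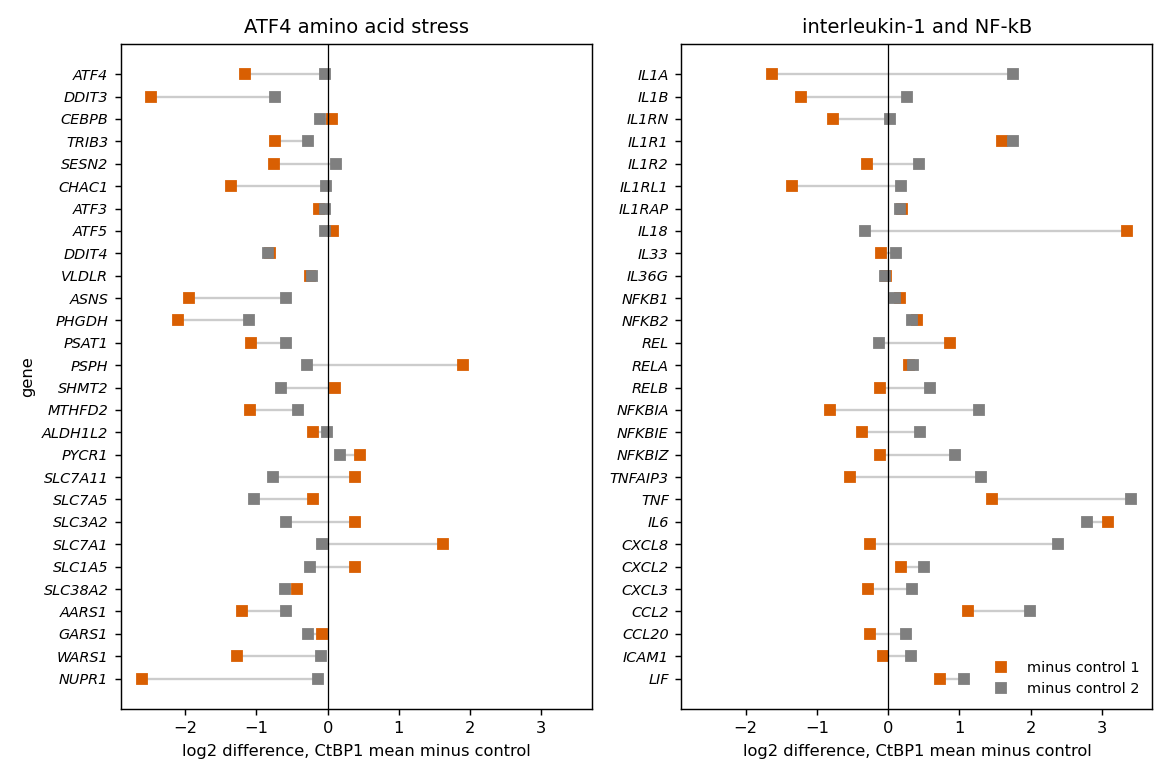
Log2 difference of each measured member of the ATF4 list and of the interleukin-1 and NF-kB list, mean of the arrays labelled CtBP1 knockdown minus each control (horizontal axis). Most ATF4 members lie left of 0 against both controls, with DDIT4 at -0.81 and -0.83, while IL6 and IL1R1 lie right of 0 against both and IL1A lies at -1.63 and 1.75.

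Markers of the ovarian carcinoma line were checked on every array. ERBB2, which is amplified in SKOV3, was bright at 8.52 to 9.58, KRT8 at 8.35 to 9.35 and KRT18 at 7.36 to 8.10, all over the 7 arrays. WT1 was at the dim end at 1.92 to 2.21. PAX8, a lineage factor of ovarian and tubal epithelium, had 6.41 and 7.49 on the controls and 7.95, 8.29 and 8.65 on the knockdown arrays (1.35 ± 0.36, SE, 1.89 and 0.81 from controls 1 and 2), while the CtBP2 knockdown arrays were at 7.37 and 7.06. UPK3B, a uroplakin of mesothelium, had 3.99 and 4.58 on the controls, 5.81, 5.28 and 5.49 on the CtBP1-labelled arrays and 3.49 and 3.71 in the CtBP2 knockdown (1.24 ± 0.24, SE, against the controls, 1.53 and 0.95 from each). Both genes were above both controls on every CtBP1-labelled array and on neither CtBP2 knockdown array. The median signal of the whole list was 4.12 and 4.27 on the controls and 5.88, 4.86 and 5.44 on the CtBP1-labelled arrays. It was 5.50 and 4.83 on the CtBP2 knockdown arrays, so the higher level of the list was not particular to the CtBP1-labelled ones. Of 21 ovarian markers, 16 had a higher and 5 a lower mean on the knockdown arrays, beside 49.1% and 50.8% of all genes. Every knockdown array was above both controls for 7 and below both for 2, beside 6.76% and 7.59% of all genes. The list also holds the mesothelial genes LRRN4 and UPK3B, both among those 7, and LRRN4 was picked earlier for its gap. At an unadjusted p under 0.05, 7 of the 21 were higher, LRRN4 and UPK3B again among them, beside 2.87% of all genes. By limma 0 passed the adjusted threshold. The median difference was 0.43, or 0.48 and 0.25 against controls 1 and 2, and it was 0.12 without CtBP1 knockdown 1 and 0.65 without CtBP1 knockdown 2.

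SOX17, a lineage factor that works with PAX8, had 4.12 and 4.27 on the controls and 4.66, 4.86 and 5.14 on the knockdown arrays (0.69 ± 0.19, SE). MUC1, a surface mucin, had 4.63 and 3.98 against 5.88, 4.74 and 5.26 (0.99 ± 0.36, SE, 0.67 and 1.32 from controls 1 and 2). Both lay above the controls on every knockdown array. GRB7, another marker of the list, was not set apart, at 5.01 and 4.35 against 6.60, 4.62 and 5.96. The ovarian markers given here with a difference are all higher ones. Markers of other cell types were dim: the median signal of 15 fibroblast and endothelial markers was 1.91 to 2.15 and of 13 leukocyte markers 1.88 to 2.15 over the 7 arrays, with PTPRC (CD45) at 1.50 to 1.73. The exception among the leukocyte markers was CD68, a lysosomal protein, at 5.90 to 7.11. Every knockdown array lay beyond both controls for 1 of the 15 and 0 of the 13. Over all genes, 6.76% lay above both and 7.59% below.

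**Figure D5:**
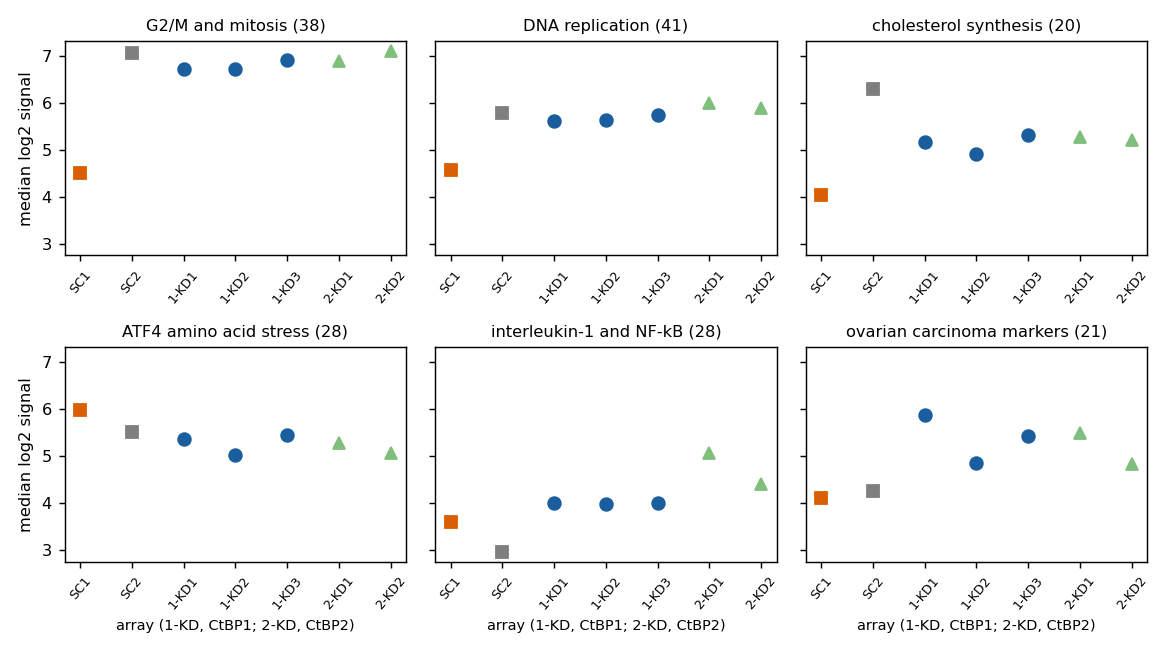
Median log2 signal (vertical axis) of 6 gene lists on each of the 7 arrays, with squares for the scramble controls, circles for the arrays labelled CtBP1 knockdown and triangles for the CtBP2 knockdown. For G2/M and mitosis control 1 is at 4.51 and every other array at 6.72 or above. For the ovarian markers both controls (4.12 and 4.27) lie below the circles (4.86 to 5.88) and below the triangles (5.50 and 4.83).

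Most genes of the hypoxia list were lower, unlike EPAS1, and the median of the glycolysis list changed sign with the control. Of 21 hypoxia genes, 17 had a lower mean on the knockdown arrays, beside 50.8% of all genes. The median was -0.22, or -0.17 and -0.33 against controls 1 and 2, and -0.14 without CtBP1 knockdown 2 and -0.38 without CtBP1 knockdown 3. NDRG1, a classical hypoxia-induced gene, was at 8.63 and 7.04 on the controls and 6.44, 6.24 and 6.65 on the knockdown arrays (-1.40 ± 0.44, SE, -2.19 and -0.60 from controls 1 and 2). CA12, a carbonic anhydrase, was at 6.46 and 5.52 against 5.18, 4.21 and 5.43 (-1.05 ± 0.44, SE, -1.52 and -0.57 from controls 1 and 2). EPAS1, picked earlier for its gap, was the member farthest above both controls. Every knockdown array was above both for 2 of the 21, EPAS1 among them, and below both for 6, beside 6.76% and 7.59% of all genes. In glycolysis, every knockdown array was above both controls for 3 of 21 genes and below both for 1, beside 6.76% and 7.59% of all genes. PFKFB3, which makes the activator of phosphofructokinase, was at 4.34 and 4.04 against 5.18, 4.94 and 4.99 (0.85 ± 0.14, SE). The others above were PFKM (0.53 ± 0.13, SE) and PFKP (1.02 ± 0.44, SE, 1.83 and 0.22 from controls 1 and 2). The list as a whole had medians of 0.41 and -0.22 against controls 1 and 2.

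Genes of cell death had members on both sides. Of 20 promoters of apoptosis, 5 had every knockdown array above both controls and 2 below, beside 6.76% and 7.59% of all genes. BAX, a pore-forming effector, was at 4.46 and 4.84 on the controls and 5.0, 5.58 and 5.26 on the knockdown arrays (0.63 ± 0.22, SE, 0.82 and 0.44 from controls 1 and 2). HRK, a BH3-only protein, was at 5.74 and 5.01 against 4.63, 4.68 and 4.25 (-0.86 ± 0.25, SE, -1.22 and -0.49 from controls 1 and 2). Of the inhibitors, MCL1 was at 7.14 and 6.81 against 6.49, 6.72 and 6.42 (-0.43 ± 0.16, SE, -0.60 and -0.27 from controls 1 and 2), and BCL2 was dim, at 2.69 and 2.60 against 2.15, 2.24 and 2.23 (-0.43 ± 0.10, SE). These differences are small beside those of the widest-gap genes.

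The targeting of proteins to the endoplasmic reticulum held one more even gene. SRP54, the GTPase of the signal recognition particle, was at 7.03 and 6.80 on the controls and 6.27, 6.27 and 6.12 on the knockdown arrays (-0.69 ± 0.13, SE), and the CtBP2 knockdown arrays were at 6.27 and 6.35. SRP72, another subunit, was at 8.23 and 8.50 against 8.13, 7.90 and 7.78 (-0.43 ± 0.15, SE, -0.30 and -0.56 from controls 1 and 2). The median of the 18 genes of the list was 0.05 and turned to -0.13 after renewed quantile normalisation, against control 1 it was 0.16 and against control 2 it was -0.30. Ribosomal protein genes had a median of -0.04, with 1 of 23, RPL30, below both controls on every knockdown array, beside 7.59% of all genes.

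The 3 knockdown clones differed among themselves. More than 1 log2 unit above the mean of the other 2 clones lay 247 genes on CtBP1 knockdown 1, 77 on knockdown 2 and 187 on knockdown 3, and 118, 327 and 62 lay as far below. The genes named here were picked after their values were seen, from among the farthest for each clone, and some farther ones were passed over. On knockdown 1, SPANXD, a cancer-testis antigen, was at 8.88 against 2.61 and 3.14 on the other clones, and MAGEC1, another such antigen, at 5.64 against 2.12 and 1.91. On knockdown 2, FN1 and TNFRSF9, a receptor of the TNF family, were high, with TNFRSF9 at 5.50 against 3.18 and 3.08. The secreted protein SPP1 (osteopontin) was low on it, at 4.59 against 7.75 and 6.62. On knockdown 3, KRT5, a basal keratin, was at 7.77 against 3.87 and 4.42, and MMP1, a collagenase, at 8.99 against 5.84 and 6.60.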

How the data were processed

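Per the submitters' processing notes, the authors summarised the arrays with RMA in Affymetrix Expression Console, and deposited a log2 signal for each transcript cluster, from 0.6013 to 12.5379. RMA corrects the background and quantile-normalises all arrays together, which evens out a shift of a whole array. Yet over the genes tested the deposited values of control 1 kept a narrower interquartile range, 2.20 against 2.85 to 3.15 on the other arrays. Scanner files are not used here. The labels name a column kit for RNA extraction and the design text names TRIzol, and the source names number the line differently on each array while the cell line field is SKOV3 throughout. The number of arrays limits the precision.

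Clusters with exactly 1 symbol in the platform annotation were kept, and of the 895 genes with several clusters the brightest on average was used, leaving 17958 genes. Of these, 17930 symbols were matched by Entrez ID. All 7 arrays entered a limma 3.58.1 fit (R 4.3.3) of 3 group means with eBayes, two-sided, with Benjamini-Hochberg adjustment over all genes at 0.05, leaving 4 residual degrees of freedom. Each control alone was tested the same way on 6 arrays. An exact permutation test of 3 against 2 arrays cannot reach 0.05 and was not run. The code was tested on simulated data.

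The comparison, the gene lists (30, with 638 of 699 genes measured) and the rule for named genes were chosen with earlier results of these data known. Named genes are CTBP1 and CTBP2, the 12 widest gaps per direction, up to 4 members of each list with the largest smaller difference from the 2 controls, and up to 4 genes per order with opposite signs. Other list members are named as examples chosen after their values were seen. Lists have no test. Alternatives are given in the closing section.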

Additional observations from a re-analysis of the deposited data

How the results depend on the processing

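Against both controls, 0 genes passed the adjusted threshold under every alternative except leaving out control 2 (0 to 3262 with 1 array left out). The 861 genes at an unadjusted p under 0.05 became 538 with only the groups compared, 1365 after renewed quantile normalisation, 436 without dim genes, 254 with array weights, and 496 to 6516 with 1 array left out. The split of 516 higher and 345 lower became 640 and 725 after quantile normalisation. Against control 2 alone, 648 of 1379 were left without dim genes. Against control 1 alone, the 3262 calls became 0 with only the groups compared, 1948 without dim genes and 0 to 3619 with 1 array left out, and the 6516 at an unadjusted p became 3566 without dim genes.

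The clones share only a number in the titles. Differences between replicates 1 and 2 correlated over genes at -0.25 between scramble and CtBP1 knockdown, -0.028 between scramble and CtBP2 knockdown and 0.1 between the knockdowns. With the replicate number as a block, the unadjusted count against both controls was 436 and the calls against control 1 were 0.

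The CTBP1 difference of -0.25 ran from -0.59 to 0.09 with 1 array left out. For the difference against both controls, the sign turned after quantile normalisation for LHFPL6 (-0.13), MSMO1 (-0.12) and IL1A (-0.18), with array weights for IL1A (-0.03), with the mean of a gene's clusters for LIMD1-AS1 (0.16) and CFLAR (-0.01), and with the replicate block for LIMD1-AS1 (0.24). The cause was not tested. With 1 array left out the range was -2.28 to 3.34 for DKK1, -1.78 to 2.23 for DHCR7, -1.77 to 2.02 for LHFPL6, -1.67 to 1.89 for MSMO1, -1.63 to 1.75 for IL1A, -2.29 to 1.26 for TOB2, -1.24 to 2.51 for C3, -1.25 to 1.16 for LIMD1-AS1 and -0.06 to 0.44 for EBP. Neither renewed quantile normalisation nor median centring turned the sign of the ATF4 or ovarian marker median (-0.59 and 0.21 after the former). Leaving out genes with identical values on 2 arrays, an alternative chosen after seeing the data, gave 0 calls against both controls, 0 against control 2 and 2844 against control 1.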

Other observations

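Early-response genes had a median difference of 0.26 against both controls, 0.17 against control 1 and 0.23 against control 2, over 19 measured genes. EGR1, an immediate-early zinc finger factor, was at 6.21 and 7.42 on the controls and 6.66, 7.87 and 9.48 on the CtBP1-labelled arrays, a difference of 1.79 and 0.59 from controls 1 and 2, and of 0.45 from their mean without the third clone. FOSL2, an AP-1 subunit, was at 6.30 and 7.35 against 7.57, 7.84 and 7.95 (0.96 ± 0.33, SE, 1.49 and 0.44 from controls 1 and 2), above both controls on every knockdown array. Among 29 interferon-stimulated genes the median was 0.01. Every knockdown array lay above both controls for 3 and below both for 0, beside 6.76% and 7.59% of all genes. OAS3, an antiviral sensor of double-stranded RNA, was the farthest of these, at 3.85 and 3.46 against 4.50, 4.27 and 4.97 (0.93 ± 0.26, SE, 0.73 and 1.12 from controls 1 and 2).

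Among 19 genes of G1 control the median was 0.10. Every knockdown array lay above both controls for 5 and below both for 1, beside 6.76% and 7.59% of all genes. E2F1, which drives entry into S phase, was at 5.31 and 5.17 against 5.55, 5.81 and 6.18 (0.61 ± 0.20, SE), and CCND3 (cyclin D3) at 4.90 and 6.05 against 6.43, 6.25 and 6.82 (1.03 ± 0.36, SE, 1.60 and 0.45 from controls 1 and 2). Wnt factors and feedback genes had a median of 0.06. Every knockdown array was above both controls for 3 of 17 and below both for 3, beside 6.76% and 7.59% of all genes. TCF7L1, a repressive TCF factor, was at 4.86 on both controls and 5.06, 5.28 and 5.33 on the knockdown arrays (0.37 ± 0.12, SE), while LEF1 was dim, at 2.39 and 2.25 against 2.05, 1.58 and 2.01 (-0.44 ± 0.19, SE). None of the genes in these lists passed the adjusted threshold against both controls by limma.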
